A study of Mus musculus with 6 samples.

Results

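The long intergenic noncoding RNAs (lincRNAs) expressed in the heart were examined in obese mice given Tributyrin or vehicle. Members were the genes with the biotype lincRNA in GENCODE M21 (mouse build GRCm38), matched by Ensembl ID, with a mean CPM of at least 1 over all libraries (CPM is the counts divided by the library total, times 1000000). Of 5467 lincRNA genes listed in the count files, 1643 had at least 1 count in any library and 164 met this limit. The files listed 54232 genes, of which 54165 matched the annotation. The members were chosen by their mean level over all 6 mice, so levels are given as a description. The limit fell in a dense part of the distribution: Eprn, Gm32391 and Gm49123 lay just inside it at mean CPM values of 1.02, 1.00 and 1.00, and Gm12092, Mkln1os and Gm42595 just outside at 0.982, 0.977 and 0.967.

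The RNA was from heart ventricle of wild-type C57BL/6J mice. All 6 mice were fed western diet (WD) for 15 weeks, so no lean animals enter the comparison. The WD + Tributyrin group (3 mice) received 5 g/kg Tributyrin, a triglyceride that releases butyrate, by needle feeding in cycles of 2 days on and 2 days off for 3 weeks. The WD + Vehicle group (3 mice) received PBS on the same schedule. Neither age nor sex was given in the labels. The question was which of these noncoding RNAs differ between treated and untreated obese hearts. Libraries held 20369746 to 32734485 counts, and 39136 to 59248 of them fell on the members.

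LincRNAs are transcribed by RNA polymerase II, often spliced and polyadenylated like mRNAs, but carry no long conserved reading frame. A few have well understood roles, as scaffolds of nuclear bodies, as decoys for RNA-binding proteins, as binding partners of miRNAs or as hosts of small RNAs, and some act on genes near their own site of transcription. In the heart, lincRNAs are known for parts in lineage commitment and in hypertrophic growth. Most have no known function, and here 85 of the 164 carried only a Gm number and 52 a Rik clone name.

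The best known members differ in the sequences they carry, and the stretches behind their names are shown here as read from GENCODE M21 transcripts and RefSeq miRNAs. 1700020I14Rik, also called Oip5os1 or Cyrano, is known for a site that pairs with the miRNA miR-7 along almost its whole length and directs its decay. In its longest transcript the complement of the miR-7a-5p seed (bases 2 to 8) occurred at 2 places. At base 2952, 14 of the 15 miRNA bases past the seed also had a complement once 2 unpaired bases were allowed between, against 4 of 15 at best at base 762. Capitals mark the seed and its match.
mmu-miR-7a-5p: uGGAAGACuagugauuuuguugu
Cyrano site at base 2952: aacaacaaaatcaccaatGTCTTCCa
Cyrano site at base 762: tcaggttttttttttaatGTCTTCCa
A single seed match was no rarity, since the longest transcripts of 39 of the 164 members (23.8%) held at least 1.

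2900097C17Rik is the mouse Norad, a cytoplasmic RNA known to hold Pumilio proteins away from their mRNA targets. The Pumilio motif TGTANATA, searched on the transcribed strand, was found 11 times in its 4915 bases, the highest number of any member. Neat1 came next with 4, and 40 members (24.4%) held at least 1. Of the Norad sites, 4 are shown, with the motif in capitals.
Norad site at base 651.0: aagtcctgTGTATATAatatgaaa
Norad site at base 1523.0: gactgctgTGTATATAgtggacaa
Norad site at base 1829.0: gtgtatacTGTATATAatggacaa
Norad site at base 2754.0: tactactaTGTATATAggggacaa
H19, the maternally expressed imprinted RNA, is the host of miR-675. Both mature arms are shown with the seed in capitals.
mmu-miR-675-5p: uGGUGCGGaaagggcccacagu
mmu-miR-675-3p: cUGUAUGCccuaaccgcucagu

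Promoter sequence separated the members by their position in the genome. RefSeq windows of 250 bases before to 50 bases after the start were found for 101 members (117 windows, GRCm38.p6). Median GC content was 51.7%, against 52.7% over all 32851 windows in the table. A member is called divergent here if its nearest tested protein-coding gene lies on the opposite strand and points away from it. Their starts must lie within 5 kb of each other, and a short overlap at the starts is allowed. There were 28 such members. The 17 divergent members with a window had a median GC content of 69.7% and a median of 32 CpG dinucleotides, against 50% and 5 in the 100 windows of the other members. Windows are shown for 4 members: Gm45805, Gm40457 and 5930430L01Rik, which had the smallest p values among the members whose window was anchored within 500 bases of the annotated start, and Gm5113, the divergent member of highest level with a window. The windows lie at chr8:126758304-126758603 (minus strand), chr7:128499798-128500097 (minus strand), chr5:148995165-148995464 (minus strand) and chr7:30169625-30169924 (plus strand). RefSeq anchors them 19, 340, 9 and 0 bases from the GENCODE start, so the window of Gm40457 does not reach that start. Capitals mark each CpG, of which the windows hold 1, 5, 14 and 20.
Gm45805: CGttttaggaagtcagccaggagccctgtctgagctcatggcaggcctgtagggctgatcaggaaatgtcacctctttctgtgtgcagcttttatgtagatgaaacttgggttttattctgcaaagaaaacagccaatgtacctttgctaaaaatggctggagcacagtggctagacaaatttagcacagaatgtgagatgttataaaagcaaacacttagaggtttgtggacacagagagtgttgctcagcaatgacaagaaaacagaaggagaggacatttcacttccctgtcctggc
Gm40457: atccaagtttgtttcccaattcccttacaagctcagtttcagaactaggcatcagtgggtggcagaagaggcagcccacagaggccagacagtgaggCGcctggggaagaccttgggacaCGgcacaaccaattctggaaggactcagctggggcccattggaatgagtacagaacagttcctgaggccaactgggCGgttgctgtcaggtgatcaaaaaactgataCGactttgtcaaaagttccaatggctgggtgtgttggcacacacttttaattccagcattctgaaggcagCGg
5930430L01Rik: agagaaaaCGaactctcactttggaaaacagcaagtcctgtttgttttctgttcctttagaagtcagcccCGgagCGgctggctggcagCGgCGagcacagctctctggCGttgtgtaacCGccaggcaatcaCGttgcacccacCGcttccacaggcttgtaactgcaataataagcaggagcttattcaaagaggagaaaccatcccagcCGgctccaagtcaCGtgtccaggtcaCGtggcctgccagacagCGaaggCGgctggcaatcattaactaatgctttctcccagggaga
Gm5113: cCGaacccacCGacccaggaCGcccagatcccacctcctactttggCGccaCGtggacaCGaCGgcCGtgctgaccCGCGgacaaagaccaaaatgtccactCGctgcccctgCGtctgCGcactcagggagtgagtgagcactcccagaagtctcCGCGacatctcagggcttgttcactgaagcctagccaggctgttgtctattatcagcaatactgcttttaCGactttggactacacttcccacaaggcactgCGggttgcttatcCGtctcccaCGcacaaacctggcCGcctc
A search of both strands found TATAAA, bound by the basal transcription machinery, in 17.1% of the members' windows and 13.6% of all windows, and in 0 of the 17 divergent ones. GGGCGG, the core of the Sp1 box, was in 28.2% of the members' windows and 35.7% of all, and in 64.7% of the divergent ones. AGATAA, a motif of cardiac zinc finger factors such as Gata4, was in 13.7% and 11.2%, and the CArG box of serum response factor in 3.42% and 1.63%. Gm45805 held TATAAA and Gm40457 held GGGCGG, while the windows of 5930430L01Rik and Gm5113 held none of the 4 motifs. The windows do not show which factor binds.

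As genes the members were short and simple. Their median exonic length was 2153.5 bases (range 168 to 20771) with a median of 3 exons in the longest isoform, against 4663 bases and 9 exons in the 11855 protein-coding genes at the same CPM limit. A single exon was annotated in 17 members (10.4%), against 1.67% of the protein-coding genes. RefSeq held an entry for 129 members, of which 114 were classed as long noncoding RNA and 13 as protein-coding. Among those 13 were Lsmem2, a membrane protein gene, Zfp469, Tmem250-ps and 1810058I24Rik, the gene of a mitochondrial micropeptide. Of the 164 members, 54 overlapped another annotated gene on the opposite strand and 33 on the same strand, and 17 lay within 5 kb downstream of a protein-coding gene on its strand. The RNA was prepared with a kit that keeps strand, but the strand setting of the counting is not given in the sources used here. Overlap may therefore affect the counts of these genes. The 83 members with no such overlap or upstream gene are called isolated below.

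The members took a small and similar share of the RNA in both groups. They held 0.187% ± 0.00571 of counts in WD + Vehicle and 0.184% ± 0.00206 in WD + Tributyrin (SD, n = 3 each, two-sided exact permutation p = 0.4, with 0.1 the smallest p that 3 against 3 allows). Mitochondrial transcripts took 24.7% ± 1.57 and 27.5% ± 1.46 (exact permutation p = 0.2). Relative to nuclear counts alone, the members held 0.249% ± 0.0106 and 0.253% ± 0.00225 (exact permutation p = 0.8), so the order of the groups turned with the denominator. The counts were concentrated: Cyrano alone held 24.4% of all member counts, the 3 most abundant members held 38.1% and the 10 most abundant 62.3%. Median CPM was 2.96, and 63 members lay between 1 and 2 CPM, 74 between 2 and 10, and 27 at 10 or more.

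Levels in single mice are given below as CPM scaled by TMM factors, which correct for differences in library composition. Cyrano, the most abundant member (chr2:119594297-119607502, plus strand), had 471, 427 and 423 CPM in WD + Vehicle and 490, 460 and 429 in WD + Tributyrin. The groups overlapped, and the log2 fold change of Tributyrin over vehicle was 0.06 (SE 0.0770). Norad (chr2:156388065-156392979, a single exon) had 102, 97.9 and 91.9 CPM in vehicle and 99.9, 107 and 101 in Tributyrin, a log2 fold change of 0.07 (SE 0.0714). These were among the most precisely measured members. Per kilobase of exon, Gm44386 stood highest with 83.1 CPM, followed by Cyrano with 54.2, Gm5532 with 44.3, Lsmem2 with 35.9 and Tmem250-ps with 32.3, against a median of 1.77 over the members and 3.82 over the protein-coding genes. Gm5532 ranged from 86.8 to 109 CPM in vehicle and 87.5 to 119 in Tributyrin, and 1810058I24Rik from 61.9 to 73.6 and 61.4 to 75.9.

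**Figure D1:**
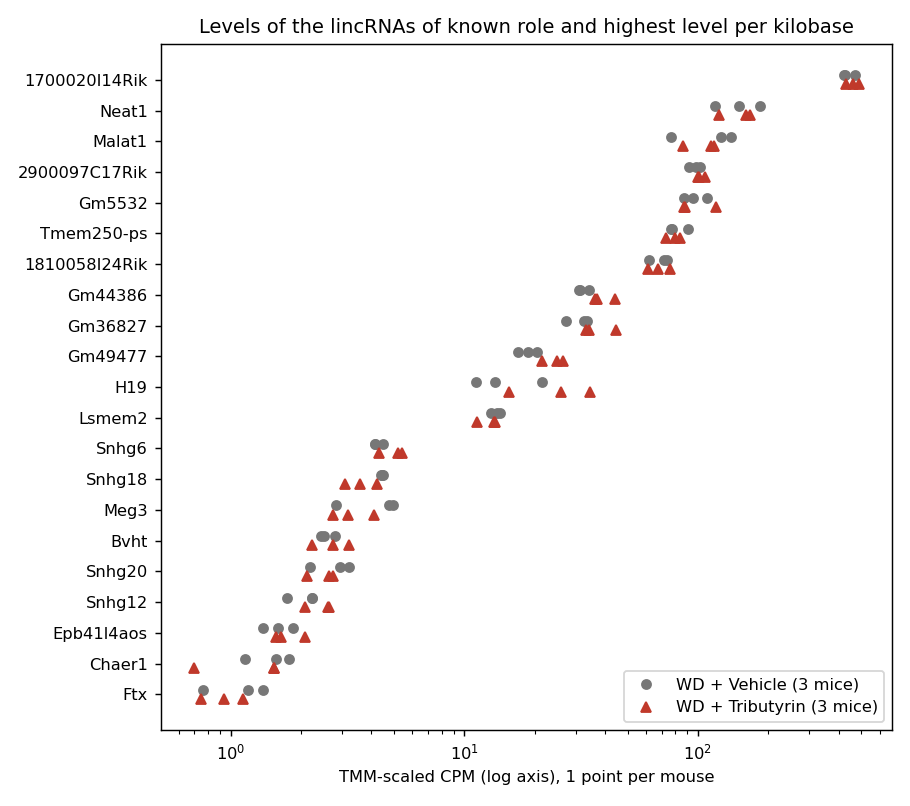
Level of 21 lincRNAs of known role or of highest level per kilobase, in TMM-scaled CPM on a log axis, with 1 point per mouse (grey circles WD + Vehicle, red triangles WD + Tributyrin, 3 mice each). The groups overlap for most members, from Ftx near 1 CPM to Cyrano (1700020I14Rik) at 423 to 490 CPM, and are separate for Gm44386, Gm49477 and Snhg18.

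The nuclear scaffold RNAs varied more between mice than between groups. Malat1, a nuclear speckle RNA, had 139, 76.7 and 126 CPM in WD + Vehicle and 86.1, 114 and 117 in WD + Tributyrin (log2 fold change -0.10, SE 0.192). Neat1, the RNA around which paraspeckles form, had 150, 119 and 185 CPM against 124, 160 and 167 (-0.01, SE 0.155). Both were lowest in vehicle replicate 2 and in Tributyrin replicate 1 of their groups, and neither direction was stable: Malat1 turned to 0.07 without vehicle replicate 1, and Neat1 to 0.16 without vehicle replicate 3. Malat1 and the long Neat1 form end in a structure without a poly(A) tail, so poly(A)-selected libraries do not give their whole pool. Their protein partners were set beside them. The 6 paraspeckle proteins tested were all above 0 by TMM and 4 of them when scaled by library size alone, with a median log2 fold change of 0.11 by TMM. Of these, Matr3, a nuclear matrix RNA-binding protein, had an unadjusted p of 0.0212 (0.18, SE 0.0660). Of the 6 nuclear speckle proteins, 2 were higher and 4 lower, and the splicing factor Srsf3 had 0.23 (SE 0.0897, unadjusted p = 0.0263). None of these 12 genes passed the 10% false discovery rate.

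The imprinted members pointed in different directions. H19 (chr7:142575529-142578143, minus strand) had 21.5, 11.3 and 13.5 CPM in WD + Vehicle and 15.5, 25.9 and 34.4 in WD + Tributyrin. Vehicle replicate 1 lay above Tributyrin replicate 1, so the groups overlapped (log2 fold change 0.71, SE 0.283, unadjusted p = 0.0298, adjusted p = 0.999 by edgeR). Leaving out each library in turn and the other settings gave H19 values from 0.43 to 1.04. Igf2, its paternally expressed neighbour, had 2.13, 0.943 and 1.14 CPM against 1.53, 2.02 and 1.96 (0.40, SE 0.321), and Cdkn1c, a growth-restraining imprinted gene, had a log2 fold change of 0.20 (SE 0.140). Meg3, of the Dlk1-Dio3 imprinted cluster, had 4.78, 2.83 and 4.97 CPM against 2.74, 4.11 and 3.18 (-0.31, SE 0.243), and was lowest in the same library of each group as Malat1 and Neat1. Its cluster neighbour Rian, annotated as a processed transcript and so no member, had -0.25 (SE 0.188).

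Among the hosts of small RNAs, 5 of the 27 listed genes found in the files were members, and none passed the test. Snhg6, a snoRNA host, had 4.51, 4.15 and 4.16 CPM in vehicle and 5.41, 4.32 and 5.22 in Tributyrin (0.22, SE 0.147), and Snhg12 had a log2 fold change of 0.24 (SE 0.206). Snhg18 had 4.47, 4.51 and 4.40 CPM against 3.59, 3.10 and 4.22, so that its groups did not overlap (-0.30, SE 0.160, unadjusted p = 0.0915), while Snhg20 had -0.14 (SE 0.211). Epb41l4aos had 0.13 (SE 0.236). Snhg6, Snhg12, Snhg18 and Snhg20 overlap small RNA genes on their own strand, which may affect the counts of the host. Over all 18 host genes tested, lincRNA or not, 8 were higher and 10 lower with a median of -0.06, and 1 of them, the miR-22 host Mir22hg, had an unadjusted p under 0.05 (-0.39, SE 0.157).

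The heart lincRNAs gave small values. Bvht (Braveheart), known for cardiac lineage commitment, had 2.45, 2.50 and 2.79 CPM in WD + Vehicle and 2.24, 2.75 and 3.22 in WD + Tributyrin (0.08, SE 0.195). Chaer1, a regulator of hypertrophic growth that binds Polycomb repressive complex, had 1.78, 1.149 and 1.56 CPM against 1.53, 1.53 and 0.696 (-0.22, SE 0.329), and its direction turned without Tributyrin replicate 3, the lowest library. Hand2os1, the divergent partner of the cardiac factor Hand2, is annotated as a processed transcript and lies outside the members. It had a log2 fold change of 0.26 (SE 0.104, unadjusted p = 0.0327). Ftx, of the X-inactivation centre, had 0.766 to 1.37 CPM in vehicle and 0.747 to 1.1 in Tributyrin (-0.22, SE 0.316). Xist, below the limit, had at most 0.237 CPM in any library, and Jpx, another lincRNA of that centre, 0.682 on average.

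No member passed the test across all genes. By edgeR's quasi-likelihood test, adjusted by Benjamini-Hochberg over all genes tested, a 10% false discovery rate called 0 of the 164 members and 0 of all 14133 genes tested (0%), and the same held at 5% (0%). The smallest adjusted p of a member was 0.999. Before adjustment, 8 members were higher with Tributyrin at p under 0.05 (4.88%, against 1.97% of all genes tested) and 7 were lower (4.27%, against 2.28%). By the same cut DESeq2 gave 8 and 5, against 0.837% and 0.962% of the 25581 genes in its unfiltered fit, and limma-voom 10 and 5, against 1.96% and 2.32% of all genes. At 10%, DESeq2 called 11 of its 25581 genes, of which 12402 were given no adjusted p. Gm40457 was the 1 member among the 11. Without its filter on low counts edgeR called 167 of 25581 genes (0.653%), 7 of them members, namely Gm49477, H19, Gm10635, Gm12295, Gm30735, Gm40457 and Gm49794. H19, whose groups overlapped, had an adjusted p of 2.25e-07 in that edgeR fit and 0.999 in the main fit. Its log2 fold changes there were 0.717 and 0.713. The lower count was 3 without vehicle replicate 3 and 4 without Tributyrin replicate 1 or Tributyrin replicate 2, against 7 in the main fit. In both directions together, these fits gave 5.49%, 6.1% and 7.93% of members, against 2.68%, 3.74% and 9.56% of all genes. The main fit gave 9.15% of members and 4.25% of all genes.

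The members' changes were small beside their errors and lay on both sides of 0. The log2 fold change was above 0 in 91 members (55.5%, against 49.6% of all genes tested), with a median of 0.04 against -0.0013 over all genes. Scaling by library size alone left 71 members above 0 and moved their median to -0.035, with that of all genes at -0.0736. The absolute log2 fold change had a median of 0.17, with a median SE of 0.21, and 150 members (91.5%) lay within 0.5 of 0. Values ran from -1.46 to 1.19. The groups did not overlap for 12 members higher with Tributyrin (7.32%, against 4.34% of all genes) and 10 lower (6.10%, against 4.61%), and for 8 and 16 when only library size was used (1.75% and 9.73% of all genes). By that scaling the 8 and 7 members with an unadjusted p under 0.05 became 6 and 9, while 0.708% of all genes were higher and 4.94% lower at that p.

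**Figure D2:**
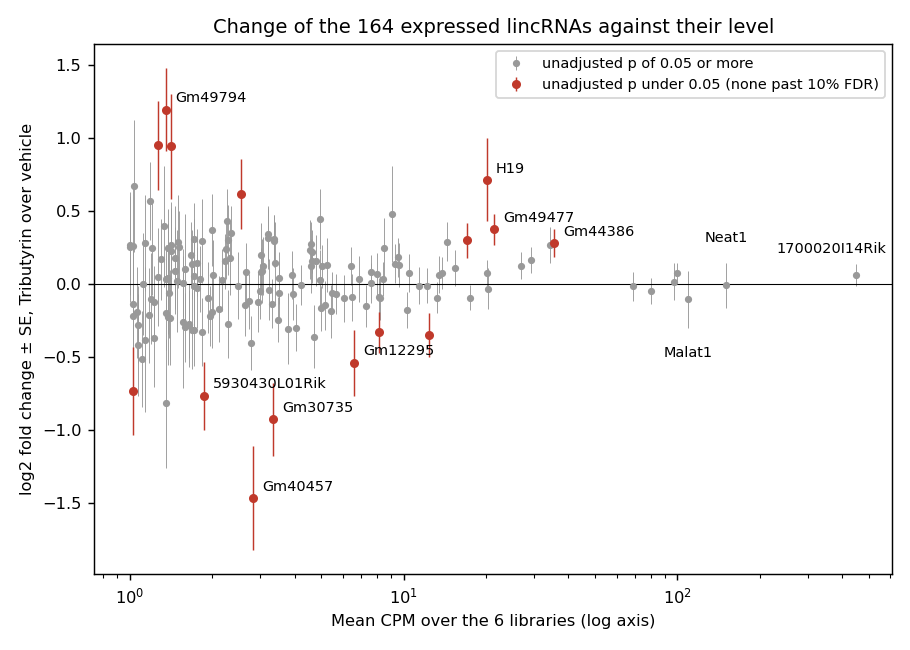
The log2 fold change of Tributyrin over vehicle with its SE for the 164 members, against mean CPM on a log axis. Red marks the 15 members with an unadjusted p under 0.05, none of which passed 10% false discovery rate, and the error bars narrow from low to high level.

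The share of members with an unadjusted p under 0.05 was set beside protein-coding genes of like level. It was 7.94% of 63 members at 1 to 2 CPM against 4.57% of 810 protein-coding genes, and 6.76% of 74 members at 2 to 10 CPM against 4.64% of 3168. At 10 CPM or more it was 5 of 27 members (18.5%) against 3.58% of 7877. Those 5 were Gm44386, Gm49477, H19, A430046D13Rik and Gm26917. The median SE of the members fell from 0.299 to 0.185 and 0.119 across these classes, and that of the protein-coding genes from 0.281 to 0.166 and 0.0925. The biological coefficient of variation, the spread between mice beyond counting error, had medians of 0.205, 0.136 and 0.106 in the members against 0.192, 0.127 and 0.0866 in the protein-coding genes. The median was higher in the members in each class. A member near the limit of 1 CPM can meet it through the group where it is high, as Gm49794 and Gm35533 did. The share at 1 to 2 CPM is therefore a description.

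Of the members higher with Tributyrin, the abundant ones are described first. Gm49477 (chr15:103135881-103140669, plus strand, 2 exons) had 20.5, 17.03 and 18.8 CPM in WD + Vehicle and 24.9, 21.5 and 26.5 in WD + Tributyrin. All 3 treated mice lay above all vehicle mice, with a log2 fold change of 0.38 (SE 0.107, unadjusted p = 0.00539). It overlaps D930007P13Rik on the opposite strand. Gm44386 (chr6:86513891-86516273, minus strand, 429 exonic bases) had 31.3, 34.2 and 30.9 CPM against 37.2, 36.1 and 44.2, again without overlap (0.28, SE 0.0939, unadjusted p = 0.0128). It is isolated, and Pcbp1, an RNA-binding protein gene 8.22 kb away, had a log2 fold change of -0.05 (SE 0.0658). A430046D13Rik had 16.6, 15.9 and 13.5 CPM against 20.04, 16.4 and 20.5, where the groups overlapped slightly (0.30, SE 0.119, unadjusted p = 0.0298), and its divergent partner Myl6b, a myosin light chain gene, had 0.19 (SE 0.208).

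The other higher members lay near the expression limit. Gm49794 (chr17:27354111-27367492, plus strand) had 0.948, 0.678 and 0.899 CPM in vehicle and 2.46, 1.64 and 1.61 in Tributyrin, the largest difference upward (1.19, SE 0.284, unadjusted p = 0.00172). This rested on 19 to 69 counts per library, and Gm49795 overlaps it on the opposite strand. Every vehicle mouse lay under 1 CPM, so Gm49794 met the limit through the Tributyrin group. Gm45805 (chr8:126755571-126758334, minus strand), whose TATA-bearing window is printed above, had 1.19, 0.560 and 0.899 CPM against 1.74, 1.74 and 1.52 (0.95, SE 0.303, unadjusted p = 0.0103). In 2900052N01Rik (chr9:46913493-46927366, plus strand) the values were 1.62, 0.707 and 0.615 CPM against 2.28, 1.67 and 1.697, and vehicle replicate 1 nearly reached the treated mice (0.94, SE 0.359, unadjusted p = 0.0245). Gm4544 had 1.74, 2.21 and 2.13 CPM against 3.63, 3.52 and 2.13, so that Tributyrin replicate 3 lay within the vehicle range (0.62, SE 0.237, unadjusted p = 0.0256).

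Among the members lower with Tributyrin, Gm40457 had the largest difference of all 164. Gm40457 (chr7:128487945-128500187, minus strand, 5 exons) had 4.47, 5.39 and 2.37 CPM in WD + Vehicle and 1.82, 0.802 and 1.91 in WD + Tributyrin. The lowest vehicle mouse lay just above the highest treated mouse (log2 fold change -1.46, SE 0.355, unadjusted p = 0.00194). Its adjusted p was 0.999 by the main edgeR fit, 0.932 by limma-voom and 0.0900 by DESeq2. By edgeR without the filter on low counts it was 7.75e-08, although the log2 fold change stayed at -1.46. Why the p value moved was not tested. In the edgeR fits without 1 library, Gm40457 had adjusted p values of 0.389 or more. It is isolated, and Bag3, a co-chaperone gene of the sarcomere 23.4 kb away, had a log2 fold change of -0.03 (SE 0.0789). Gm40457 was also set beside atrial markers. The summed CPM of 5 atrial genes (Myl7, Sln, Myl4, Mybphl and Nppa) was 182, 172 and 53.8 in vehicle and 31.04, 64.4 and 46.3 in Tributyrin. Of the 5 genes, 4 had an unadjusted p under 0.05, all lower with Tributyrin. Nppa alone was highest in vehicle replicate 3 (39.8 CPM, against 21.1 and 18.4 in replicates 1 and 2). In vehicle, the sum and Gm40457 were both lowest in replicate 3. In Tributyrin, replicate 2 was highest in the sum and lowest in Gm40457. Without vehicle replicates 1 and 2, the libraries high in these markers, Gm40457 had -0.66 (unadjusted p = 0.195), and the members with an unadjusted p under 0.05 numbered 4 higher and 3 lower, against 1.01% and 1.65% of the 14894 genes tested there. That fit leaves 1 vehicle mouse, whose spread is taken from the other group, and the part of atrial tissue in the result was not tested. Outside the atrial list, 2 of 5 fibroblast markers were lower at an unadjusted p under 0.05 by edgeR. Of 5 smooth muscle and pericyte markers, 1 was higher at that p. Among 5 ventricular cardiomyocyte markers, 1 was higher and 1 lower. The endothelial, macrophage, lymphocyte, erythroid and Schwann markers tested gave 0. In bulk RNA, fewer cells of a type and less RNA per cell cannot be told apart.

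Gm30735 (chr3:53725477-53733018, plus strand) had 3.75, 5.60 and 3.60 CPM in vehicle and 1.60, 2.68 and 2.61 in Tributyrin, without overlap (-0.93, SE 0.248, unadjusted p = 0.00371). Without vehicle replicates 1 and 2 it had -0.65 (unadjusted p = 0.0889). Frem2, an extracellular matrix gene 68.1 kb away, had -0.25 (SE 0.200). 5930430L01Rik (chr5:148990056-148995223, minus strand) was tight within vehicle at 2.41, 2.24 and 2.37 CPM, against 1.74, 1.151 and 1.22 in Tributyrin (-0.76, SE 0.232, unadjusted p = 0.00796). The value without vehicle replicates 1 and 2 was -0.78 (unadjusted p = 0.0638). Gm35533 had 1.11, 1.149 and 1.56 CPM against 0.747, 0.593 and 0.957 (-0.73, SE 0.299, unadjusted p = 0.0344). Every Tributyrin mouse lay under 1 CPM, so Gm35533 met the limit through the vehicle group.

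Gm12295 (chr11:65277654-65365798, minus strand) lies 7.67 kb from Myocd, the gene of the smooth and cardiac muscle coactivator myocardin. It had 6.44, 5.89 and 11.1 CPM in WD + Vehicle and 5.55, 4.67 and 5.74 in WD + Tributyrin, and vehicle replicate 3 stood far above the rest (-0.54, SE 0.225, unadjusted p = 0.0374). Without that library the log2 fold change was -0.21 (unadjusted p = 0.213). Myocd had -0.18 (SE 0.140). Gm39214, which overlaps Itfg1 on the opposite strand, had 8.02, 9.84 and 9.08 CPM against 6.09, 7.04 and 8.40 (-0.33, SE 0.143, unadjusted p = 0.0427), while Itfg1 had 0.12 (SE 0.0736). Gm26917 had 15.8, 10.55 and 15.2 CPM against 10.54, 10.4 and 11.6, so that vehicle replicate 2 sat among the treated mice (-0.35, SE 0.151, unadjusted p = 0.0433).

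**Figure D3:**
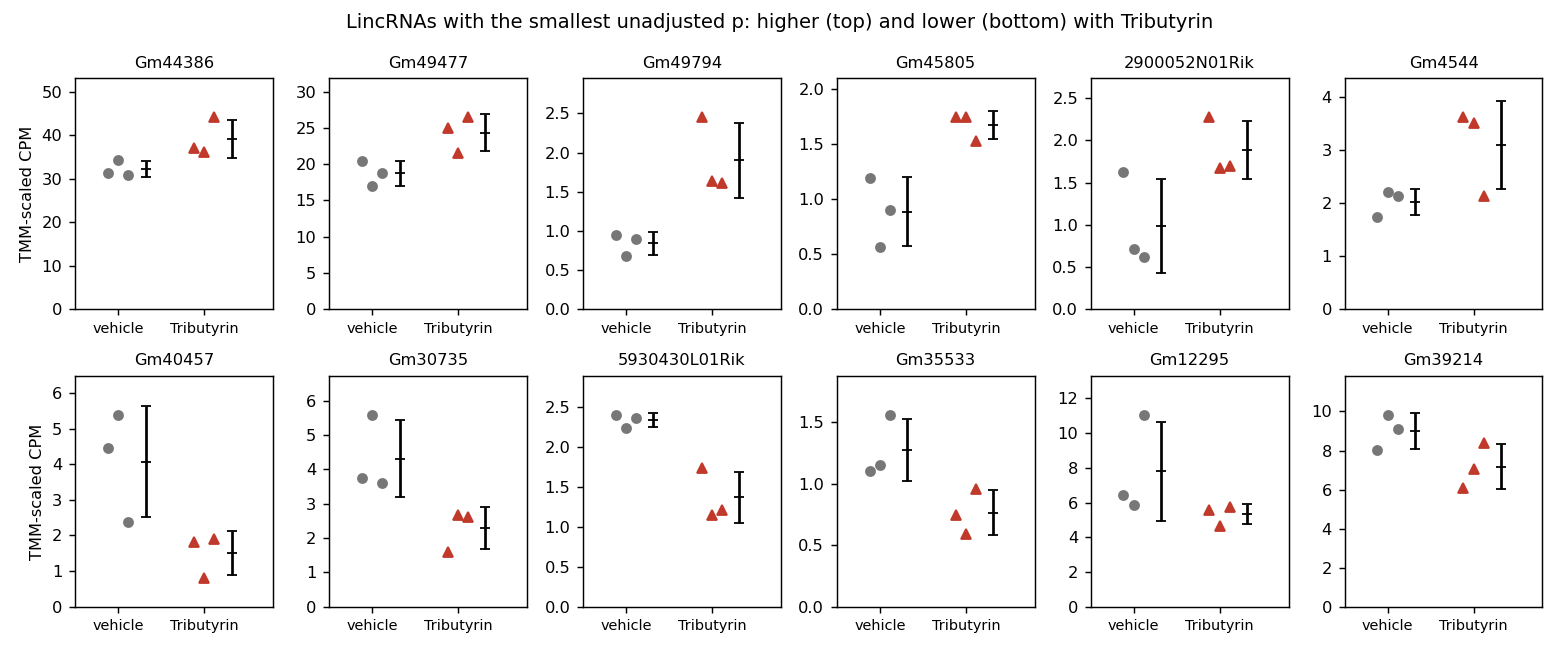
TMM-scaled CPM in each mouse for the 6 members higher (top) and the 6 lower (bottom) with Tributyrin that had the smallest unadjusted p, with the mean and SD of 3 mice beside the points. The groups touch or overlap for Gm4544 and Gm39214, and 1 vehicle mouse stands apart in Gm12295.

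**Figure D4:**
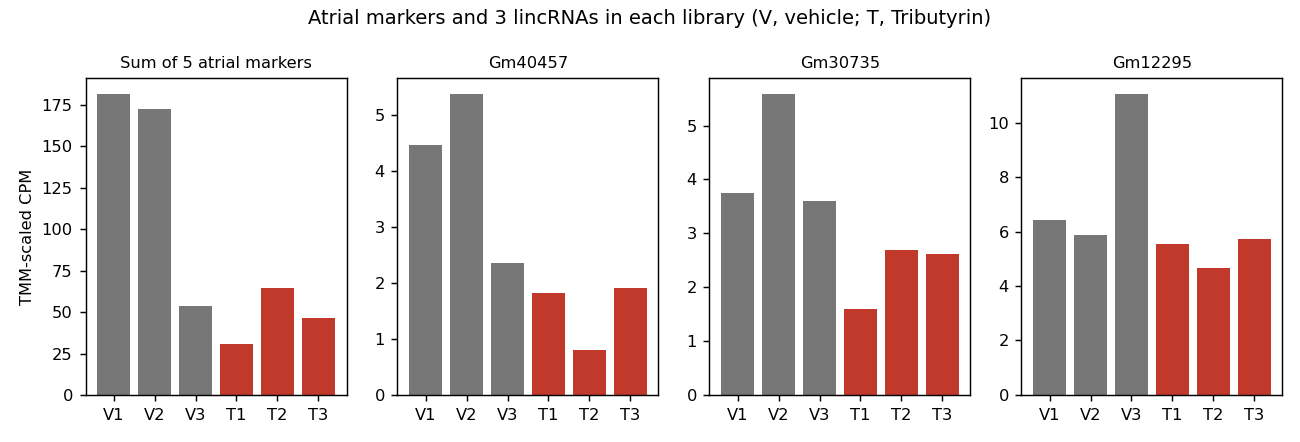
TMM-scaled CPM of 5 summed atrial markers and of Gm40457, Gm30735 and Gm12295 in each library, as bars from 0 (V1 to V3 vehicle, T1 to T3 Tributyrin). The summed markers reach 182 and 172 in V1 and V2, the libraries where Gm40457 is also highest, while Gm12295 is highest in V3. Among the Tributyrin libraries, T2 is highest in the markers and lowest in Gm40457.

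Since some lincRNAs act on genes near their site of transcription, each member was set beside the nearest protein-coding gene tested. The median distance was 11.05 kb, 69 members lay within 5 kb and 24 more than 100 kb away. Member and neighbour had the same sign in 85 of 164 pairs, and the log2 fold changes had a Pearson correlation of -0.02 across pairs. In the 28 divergent pairs the sign was shared in 17 (r = 0.19), in the 41 other pairs within 5 kb in 22 (r = 0.21), and in the 95 pairs further apart in 46 (r = -0.06). The 24 pairs more than 100 kb apart, which are among these 95, shared the sign in 6 (r = -0.48). The points of each plot come from the same 6 libraries, and genes are not independent replicates, so these correlations are descriptions. Unadjusted p was under 0.05 for the neighbour in 4 of the 164 pairs (2.44%, against 4.25% of all genes tested), and for both genes in 0 pairs. Those 4 were 3425401B19Rik, Tspan9, Zfpm1 and Kcnj3, next to Gm28651, 9330102E08Rik, Zfp469 and Gm26794.

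**Figure D5:**
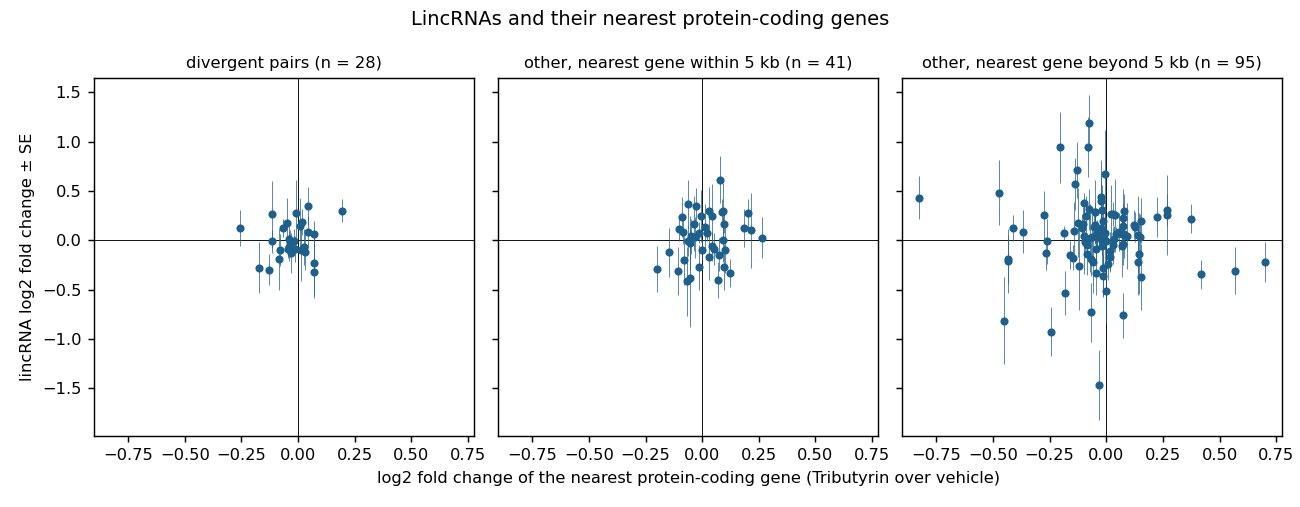
The log2 fold change of each member with its SE against that of its nearest protein-coding gene, for 28 divergent pairs, 41 other pairs within 5 kb and 95 pairs further apart. The points scatter around 0 in each panel, and the members with the largest differences, such as Gm40457 at -1.46, lie in the panel of distant neighbours where Bag3, the neighbour of Gm40457, is at -0.03.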

How the data were processed

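Heart ventricle RNA from 6 mice, 3 per group, was sequenced as stranded poly(A) libraries with single-end reads of 50 bases. The deposited values are whole-number counts of reads per gene, which the authors made by trimming, removal of ribosomal RNA reads, alignment and gene counting. The submitters' processing notes name cutadapt 1.13, STAR, HTSeq 0.6.1p1, DESeq2 1.14.1 and mm10. For the counting step, neither strand setting nor annotation release is known from those notes. Groups came from the sample labels, and all genes were tested with edgeR 4.0.16 in R 4.3.3 (TMM scaling, filterByExpr at its limits of 10 counts per gene and 15 in total, quasi-likelihood test, no covariate, Benjamini-Hochberg adjustment over 14133 genes). The log2 fold changes, SE and p values of the members come from that fit. SE was derived as the absolute log2 fold change divided by the square root of the test's F statistic. Thresholds were false discovery rates of 10% and 5%, as in the study's own analysis. The share of counts was compared by an exact permutation test. DESeq2 1.42.0 and limma 3.58.1 served as alternatives, beside other scalings, filters, expression limits, a replicate block and each library left out. The test scripts were tested on simulated data. Replicates were separate mice, and p values measure the spread between them. Named were members of role lists, the 10 highest per kilobase, the 6 with the smallest p in each direction, those next to the expression limit, and partner genes; Gm5113, Gm10635, A430046D13Rik, Gm26917 and the 4 neighbour genes of low p were named after their values were seen. The members, lists and tests were chosen with earlier results of these data known. Intervals of counting error were not formed, since SE covers both mice and counting.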

Additional observations from a re-analysis of the deposited data

How the results depend on the processing

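The number of members called at 10% was 0 in every setting but 2: without a filter on low counts it was 7, and with DESeq2 1. In all, these settings called 167 and 11 of 25581 genes, and DESeq2 gave 12402 genes no adjusted p. Without the filter, 13 members were higher and 9 lower at an unadjusted p under 0.05 (4.6% of all genes). Library size alone gave 16 members lower without overlap (9.73% of all genes) and a median of -0.035. A mean CPM limit of 0.5 gave 17 of 254 members lower without overlap, and a limit of 2 gave 6 of 101, against 4.61% of all genes. At the limit of 2, 5 of the 101 were higher at an unadjusted p under 0.05, against 1.97% of all genes. The 83 isolated members gave 5 higher and 4 lower at that p, against 1.97% and 2.28% of all genes. Without overlap they gave 7 and 6, against 4.34% and 4.61% of all genes. Without the libraries high in atrial markers, a setting chosen after seeing the data, 4 were higher and 3 lower at that p. The share of counts turned to 0.00409 percentage points higher with Tributyrin among nuclear counts. With 1 library left out, the counts at an unadjusted p under 0.05 ran from 6 to 12 higher and from 3 to 9 lower (3 without vehicle replicate 3, 4 without Tributyrin replicate 1 or 2). Both directions together made 5.49% to 12.8% of members, against 2.68% to 9.56% of all genes. In these fits the members without overlap ran from 13 to 26 higher and from 15 to 23 lower. No share over all genes was formed for these counts. The median ran from -0.006985 to 0.06444. Fewer libraries make overlap rarer by construction; otherwise the cause was not tested.

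Of 34 named members, 23 kept 1 direction in all settings. Library size alone turned 1700020I14Rik to -0.00809 and Gm5532 to -0.0616, limma-voom turned Neat1 to 0.00575 and Eprn to 0.0188, and the replicate block turned Neat1 to 0.00278. Leaving out 1 library turned Malat1 (-0.324 to 0.0716), Neat1 (-0.156 to 0.163), Bvht (-0.0406 to 0.216), Chaer1 (-0.397 to 0.0507), Gm5532 (-0.14 to 0.109), Tmem250-ps (-0.0893 to 0.0371), 1810058I24Rik (-0.095 to 0.056), Eprn (-0.459 to 0.341), Gm32391 (-0.0429 to 0.454) and Gm49123 (-0.0567 to 0.587). Replicate numbers did not pair the mice (correlations of deviations 0.307, 0.071 and -0.007). With a replicate block, 11 members were higher and 7 lower at an unadjusted p under 0.05, and 0 passed 10%. At 1 to 2 CPM, a median SE of 0.299 left only large differences detectable.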
